A study of Mus musculus with 6 samples.

Results

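The HoxC genes Hoxc5, Hoxc6 and Hoxc10 lie in 1 of the mouse Hox clusters, on chromosome 15. They were represented by the windows of 500 bp for which the authors listed one of them as the gene with the nearest transcription start site. Of 2135 windows listed in any of 3 comparisons of DNA methylation, 11 were nearest to these genes, 8 to Hoxc6, 2 to Hoxc5 and 1 to Hoxc10. The genes were selected on the methylation differences that the authors listed, so the listing, size and direction of those differences are given as a description, without a test.

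The data come from reduced representation bisulfite sequencing (RRBS), which reads cytosine methylation in CpG-rich fragments cut by the enzyme MspI. All 6 libraries came from C57BL6 marrow cells immortalised with HoxA9, a homeodomain protein, and transplanted into irradiated mice, and GFP-positive cells were sorted from the recipients' marrow after 4 weeks. IDH1mut cells (2 libraries) carried pSF91-IDH1mut-IRES-GFP, with the mutation R132C as the authors' table names it. R-2HG cells (2 libraries) carried the empty vector, and their recipients were given 1 mg of R-2HG a day over 4 weeks. IDH1wt cells (2 libraries) carried pSF91-IDH1wt-IRES-EGFP, and both other groups were set against them. The sources used here give no age for the animals. HoxA9 was present in every group, and R-2HG cells differed from IDH1wt and IDH1mut cells in their vector in addition to the treatment. Cells with the empty vector and no R-2HG were not analysed here.

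Hox genes encode homeodomain transcription factors that pattern the body axis, and in blood several of them sustain immature progenitors. The genes of a cluster are read in the same direction and are switched on in order of their position, and Polycomb proteins keep the silent ones off. Hoxc5 and Hoxc6 belong to the middle of the cluster and act in trunk patterning, while Hoxc10 belongs to its posterior part and acts in the lumbar region and hindlimb. Mutant IDH1 makes R-2HG, a competitor of 2-oxoglutarate at enzymes such as the TET proteins, which oxidise methylated cytosine. CpG-rich promoters are mostly free of methylation in normal cells, and those of Hox genes are known to gain it in many tumours.

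Each difference below is the authors' own, in percentage points of methylation, with its sign turned where needed so that it reads as the first-named group minus the second. The tables give no value per library, no group mean, no error and no read depth, so no spread between replicates stands beside a value, and it is not stated if libraries of the same group were from different animals. The smallest size listed was 25 points, and windows under that size are absent from the authors' deposited tables. The 3 tables fix the sign of each difference only up to a reversal of all of them at once. A loss below would be a gain if the authors subtracted the other way round. At the 6 windows listed for both IDH1mut and R-2HG against IDH1wt, the direction they share does not depend on the reading.

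The HoxC genes run along the plus strand of chromosome 15 in the order Hoxc13, Hoxc12, Hoxc11, Hoxc10, Hoxc9, Hoxc8, Hoxc6, Hoxc5 and Hoxc4, from lower to higher coordinates. In the authors' deposited tables the HoxB genes also have the plus strand, whereas the HoxA genes have the minus strand and rise in number with the coordinate. From the distances in the authors' deposited tables, the start site of Hoxc10 lay at 102797225 and that of Hoxc5 at 102844439 in mm9. For Hoxc6 these distances gave 102839991 to 102839993, depending on the side from which they were counted. All 10 windows of Hoxc6 and Hoxc5 therefore fell within a few kilobases of these neighbouring start sites, and the Hoxc10 window stood apart from them, upstream in the cluster. No mm9 gene models were used, so exons, introns and UTRs are not given.

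**Figure D1:**
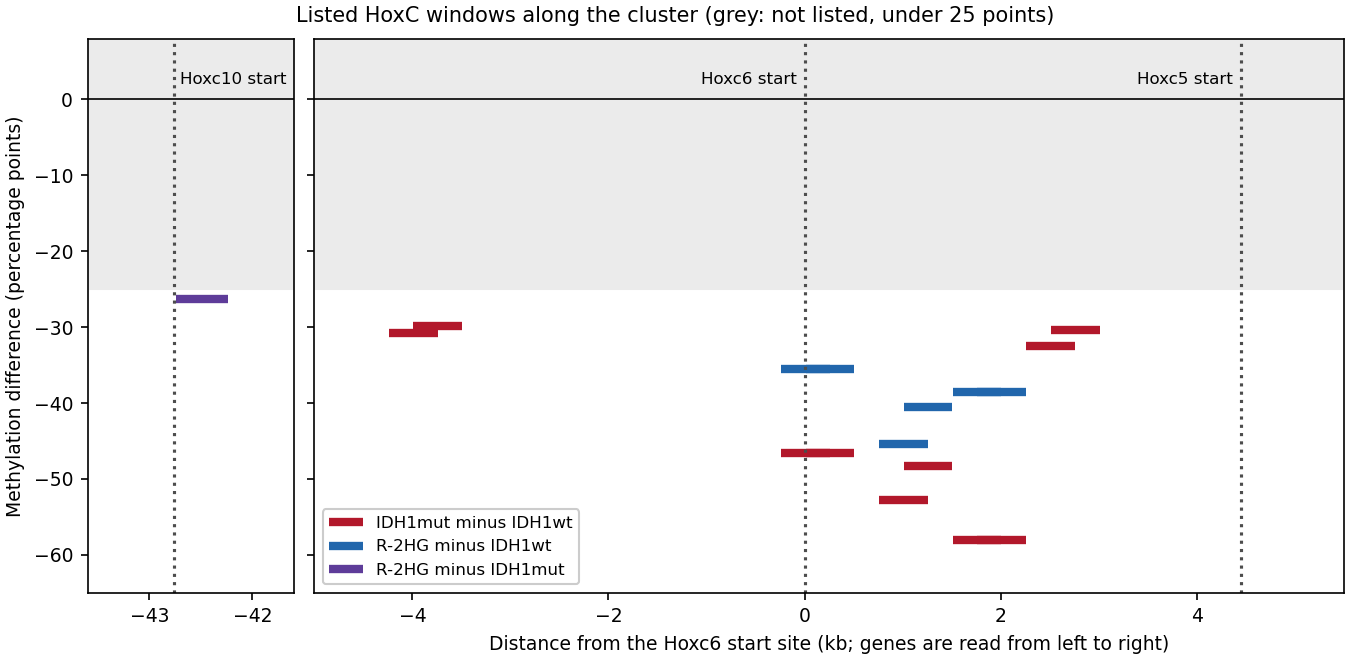
Listed HoxC windows drawn to scale by distance from the Hoxc6 start site (horizontal axis, kb) against the methylation difference (vertical axis, percentage points), with dotted lines at the start sites. Each bar is a window of 500 bp. The grey band marks sizes that the tables do not list. IDH1mut bars reach -58.1 points downstream of the Hoxc6 start, R-2HG bars lie above them at the same windows, and the single Hoxc10 bar is from R-2HG against IDH1mut.

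IDH1mut cells had lower methylation than IDH1wt cells in all 10 listed windows of Hoxc6 and Hoxc5. The differences reached from -29.9 to -58.1 points in the authors' deposited table, with a median of -46.5. Of all windows listed in this comparison, 30.7% were losses, with a median loss of -28.9 points. The authors' q was 0 at all 10 windows, so the q-values give no order among them.

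At the start site of Hoxc6, a window over the start (15:102839751-102840250) and the next one downstream (15:102840001-102840500) both had a difference of -46.5 points in the authors' deposited table. Identical values mean that both windows may hold the same CpGs, in the 250 bases they share. Further into the gene, the window 760 bp from the start (15:102840751-102841250) had -52.8 points and its neighbour at 1010 bp (15:102841001-102841500) had -48.2 points in the authors' deposited table. The next pair, at 1510 and 1760 bp (15:102841501-102842250 together), had -58.1 points in both windows in the authors' deposited table, again an identical value. That pair held the strongest loss of the whole comparison, rank 1 of 458 losses, and the window at 760 bp had rank 6.

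The loss was smaller on both sides of this stretch. Upstream of Hoxc6, windows at -3743 and -3493 bp from its start (15:102835751-102836500 together) had -30.7 and -29.9 points in the authors' deposited table. Downstream, where Hoxc5 becomes the nearer start, windows at -1689 and -1439 bp from the Hoxc5 start (15:102842251-102843000 together) had -32.5 and -30.4 points in the authors' deposited table. These 4 values were close to the median loss of the comparison, and between 30.3% and 43.2% of all its losses were at least as strong. The first Hoxc5 window begins at the base after the last Hoxc6 window, about midway between the start sites, so the gene name changes there by the nearer start. In IDH1mut the difference also stepped there, from -58.1 to -32.5 points, and the window across that boundary was not listed.

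Joined over gaps of up to 1000 bp, the windows from the Hoxc6 start to the Hoxc5 upstream region formed a stretch of 8 windows over 3250 bp. Not every window inside it was listed, and the bases between 15:102840500 and 102840751 lay in no listed window. No other of the 305 stretches of loss in this comparison had as many windows or was as long. The next largest had 4 windows, nearest to Hnrnpa3 and to Tpp1, and 55.4% of the stretches were a single window. This rank was not kept when only windows that share bases were joined. The HoxC windows then fell into 5 stretches of 2 windows each, and 140 of 310 stretches had at least as many. That rule also splits windows that touch, and the listed windows from 15:102840751 to 102843000 overlap or touch without a gap. Windows overlap by construction, and the 10 HoxC windows held 8 distinct differences.

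R-2HG cells had lower methylation than IDH1wt cells in 6 windows, all nearest to Hoxc6, and none was listed for Hoxc5 or Hoxc10. In this comparison 32.0% of all listed windows were losses, with a median loss of -28.6 points. The window over the Hoxc6 start and the one at 10 bp both had -35.5 points in the authors' deposited table, there with a positive sign. Their unrounded values differed in the third decimal, so at least 1 of them held a CpG that the other did not. At 760 and 1010 bp the differences were -45.3 and -40.5 points, and at 1510 and 1760 bp they were -38.6 points in both windows, from the authors' deposited table. The median of the 6 was -38.6 points. The largest, at 760 bp, had rank 11 of 240 losses, whereas the windows at the start had ranks 53 and 54.

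The 6 windows formed a stretch of 2500 bp (15:102839751-102842250) that no other of the 160 stretches of loss in this comparison equalled in length or in windows. The bases between 15:102840500 and 102840751 lay in no listed window here either. The next most numerous stretches held 3 windows. With only overlapping windows joined, the 6 windows fell into 3 stretches of 2 windows, and 74 of 162 stretches had at least as many. That rule again splits windows that touch, here between 15:102841500 and 102841501. The authors' q was 0 in all 6 windows.

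**Figure D2:**
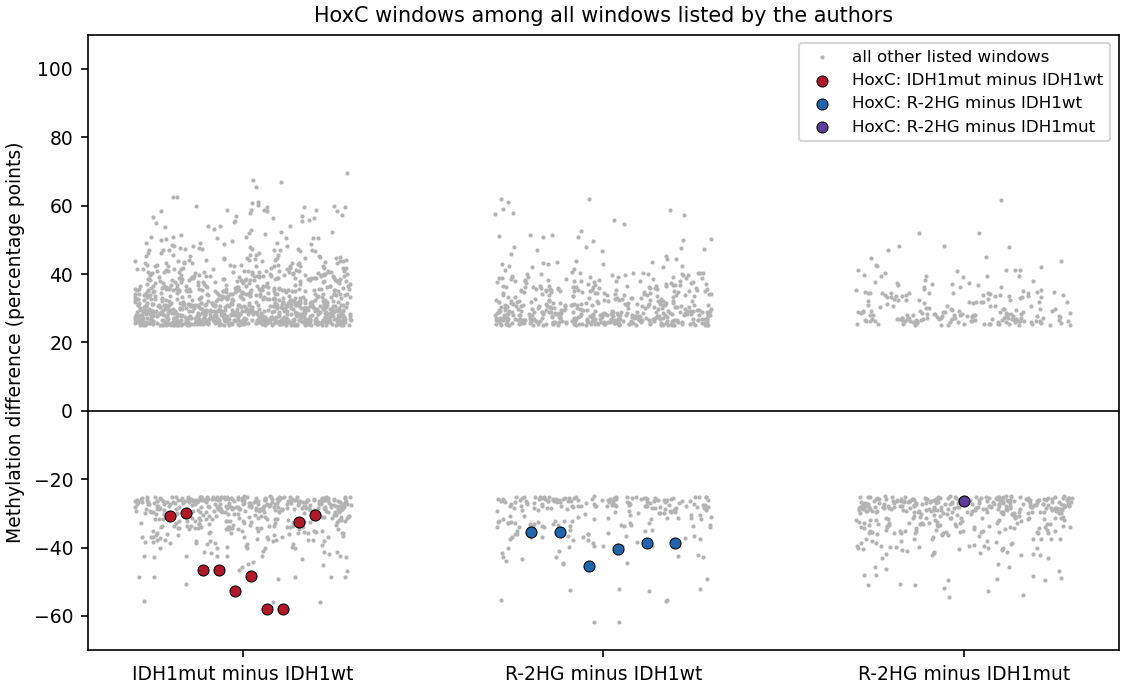
Methylation difference (vertical axis, percentage points) of every window listed in each of the 3 comparisons (horizontal axis). Grey points are all other windows, spread sideways at random, and coloured points are the HoxC windows in order along the chromosome. The HoxC points of IDH1mut minus IDH1wt include the lowest of that column, at -58.1, while the Hoxc10 point lies at the edge of the listed range.

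IDH1mut and R-2HG were both set against the same IDH1wt libraries, so their values are given side by side and their overlap is not read as evidence. At each of the 6 Hoxc6 windows listed for both, the loss was smaller in R-2HG cells than in IDH1mut cells. It was 66.5% to 85.9% of the IDH1mut loss, with -38.6 against -58.1 points at 1510 bp as the widest gap and -45.3 against -52.8 points at 760 bp as the narrowest, from the authors' deposited tables. Subtracting the differences put R-2HG above IDH1mut by 7.45 to 19.5 points. These sizes are below 25 points, and in the direct comparison of R-2HG with IDH1mut no Hoxc6 window was listed. The strongest listed loss was in the pair of windows beginning at 1510 and 1760 bp in IDH1mut and in the window at 760 bp in R-2HG cells. Without a spread between replicates, whether the place differed was not tested.

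For the 4 outer windows, listed only for IDH1mut, the value of R-2HG against IDH1wt is not listed but can be bounded. If these windows were measured in all 3 comparisons and fell short of the lists by size, R-2HG minus IDH1wt lay between -25 points and -5.74 and -4.86 points at the upstream Hoxc6 windows. At the Hoxc5 windows the same reasoning gives an upper end of -7.46 and -5.41 points. Under that condition R-2HG cells were lower than IDH1wt cells there too. Whether the condition held was not tested, since the coverage of unlisted windows is unknown.

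**Figure D3:**
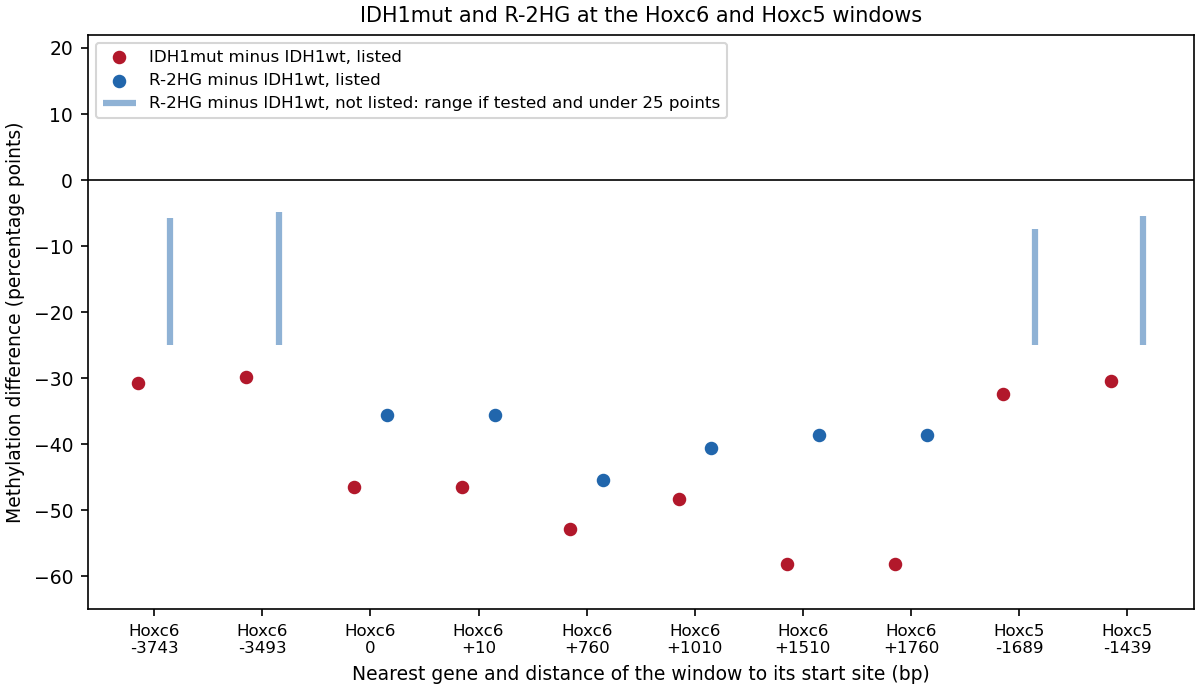
Methylation difference against IDH1wt (vertical axis, percentage points) at the 10 windows of Hoxc6 and Hoxc5, ordered along the chromosome and labelled by distance to the named start (horizontal axis). Points are listed values, and pale bars are the ranges that R-2HG minus IDH1wt can take where it is not listed, if it was measured and under 25 points. R-2HG points lie above the IDH1mut points at all 6 shared windows, and all 4 bars end below 0.

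A methylation level lies between 0 and 100%, so a large difference also limits the levels behind it. In the window at 1510 bp the IDH1mut level was at most 41.9%, the R-2HG level between 19.5% and 61.4%, and the IDH1wt level at least 58.1%. In the window over the Hoxc6 start, IDH1mut was at most 53.5%, R-2HG between 11.0% and 64.5%, and IDH1wt at least 46.5%. On the sign reading used here, the CpGs read in this window were thus methylated in a sizeable share of the molecules from IDH1wt cells. The limit is for the window as a whole and not for the start site itself. With the opposite sign the limits mirror around the middle of the scale, and IDH1wt would be the low group. In sorted but bulk material, a change of methylation within cells and a change in the mixture of cells cannot be told apart. Methylation differences do not show which genes a cell expresses, so the sorted population could not be checked by its markers. Of 5 lymphoid markers, Gata3 was listed for IDH1mut with up to 48.8 points and Ebf1 for R-2HG with 41.6 points against IDH1wt, and of 3 stromal markers Col1a1 for IDH1mut with 25.2 points, from the authors' deposited tables. Set against IDH1mut, R-2HG cells were lower at Gata3 and higher at Col1a1 and Lepr. None of 8 myeloid and none of 3 erythroid markers was listed in any comparison. The comparisons listed 881 genes for IDH1mut and 452 for R-2HG, each against IDH1wt, and 369 between R-2HG and IDH1mut. Absence from a short list is therefore not read as a result, here or for the gene lists below. Of all listed windows, 69.3% in IDH1mut and 68.0% in R-2HG were gains against IDH1wt, and 64.5% were lower in R-2HG than in IDH1mut. The part of the cell mixture in the HoxC values was not tested.

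Hoxc10 was listed once, in the direct comparison of R-2HG with IDH1mut. Its window began 26 bp downstream of the start site (15:102797251-102797750) and was lower in R-2HG cells, with a difference of -26.2 points and a q of 0 in the authors' deposited table. Of all windows listed in this comparison 64.5% were lower in R-2HG cells, with a median of -29.2 points. Most of those losses, 83.5%, were at least as strong as that of Hoxc10, which passed the size limit narrowly. The neighbouring windows, and any Hoxc10 window against IDH1wt, were not listed. If the window was measured in the other comparisons and fell short by size, R-2HG lay 1.23 to 25 points below IDH1wt and IDH1mut lay 1.23 to 25 points above it. On that condition Hoxc10 differed from Hoxc6 and Hoxc5 in the direction of IDH1mut. Since methylation cannot exceed its limits, R-2HG was at most 73.8% and IDH1mut at least 26.2% methylated in this window.

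The other HoxC genes were not listed as the nearest gene in any comparison. These were Hoxc4, Hoxc8, Hoxc9, Hoxc11, Hoxc12 and Hoxc13, the long noncoding RNA gene Hotair, and the microRNA genes Mir196a-2 and Mir615. Hoxc4, Hoxc8 and Hoxc9 flank the listed genes along the cluster, and Hotair, whose RNA has been linked to Polycomb proteins, lies between Hoxc12 and Hoxc11. No window of any other gene was listed within 100000 bp of the HoxC windows. The nearest on chromosome 15 lay 652991 bp before the Hoxc6 start for IDH1mut (Aaas, 27.9 points) and 335241 bp before it for R-2HG against IDH1wt (Mir688, 28.6 points), in the authors' deposited tables. Both were gains. For R-2HG against IDH1mut, the comparison that holds the Hoxc10 window, the nearest lay 848491 bp before the Hoxc6 start (Soat2) and was a loss of -39.4 points in the authors' deposited table. No window was listed between Hoxc5 and the far end of the chromosome.

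Mir196a-2 has a copy in the HoxB cluster, Mir196a-1, which was listed in every comparison. The mature sequences are given to show that the 5p arm is the same from both genes of this pair and that their 3p arms and 3p seeds differ, with miR-615-3p as the product of the other HoxC microRNA gene. They are from RefSeq (GRCm38.p6, plus strand), 5′ to 3′, with the seed (bases 2 to 8) in capitals.
miR-196a-5p, from Mir196a-2 on chromosome 15 and from Mir196a-1 on chromosome 11: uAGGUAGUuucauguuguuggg
miR-196a-2-3p, from Mir196a-2 on chromosome 15: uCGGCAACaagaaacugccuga
miR-196a-1-3p, from Mir196a-1 on chromosome 11: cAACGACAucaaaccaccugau
miR-615-3p, from Mir615 on chromosome 15: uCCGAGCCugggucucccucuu
The Mir196a-1 window at -1228 bp was higher by 25.2 points in IDH1mut cells and by 27.0 points in R-2HG cells, each against IDH1wt, in the authors' deposited tables. Another, at -478 bp, was higher by 26.1 points in R-2HG cells than in IDH1mut cells. Its HoxC copy was not listed.

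The direction at HoxC was opposite to that at the other Hox protein genes that were listed. For IDH1mut against IDH1wt, 4 of 11 HoxA genes were listed with 10 windows and 2 of 10 HoxB genes with 5 windows. All 15 were gains, of 30.4 to 42.3 points at HoxA and 28.8 to 36.5 points at HoxB, from the authors' deposited table, where 69.3% of all listed windows were gains. For R-2HG against IDH1wt, 3 HoxA genes had 5 gains of 26.8 to 37.6 points and 2 HoxB genes had 6 gains of 26.1 to 34.5 points, from the authors' deposited table, where 68.0% of all listed windows were gains. In both comparisons with IDH1wt the direction at HoxA and HoxB was thus that of most listed windows. No HoxD gene of 9 was listed in any comparison. In the direct comparison of R-2HG with IDH1mut, Hoxc10 and Hoxa10 were each listed with 1 window, Hoxa10 higher by 28.6 points in the authors' deposited table, where 35.5% of all listed windows were higher in R-2HG cells. Hoxa11os, an antisense RNA gene of the HoxA cluster that is not a Hox protein gene, was an exception, with 2 losses of -27.1 and -27.6 points for IDH1mut in the authors' deposited table. The contrast in direction does not depend on the sign reading, since a reversal turns every cluster at once, and it is a description, as the genes were chosen with these values known.

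**Figure D4:**
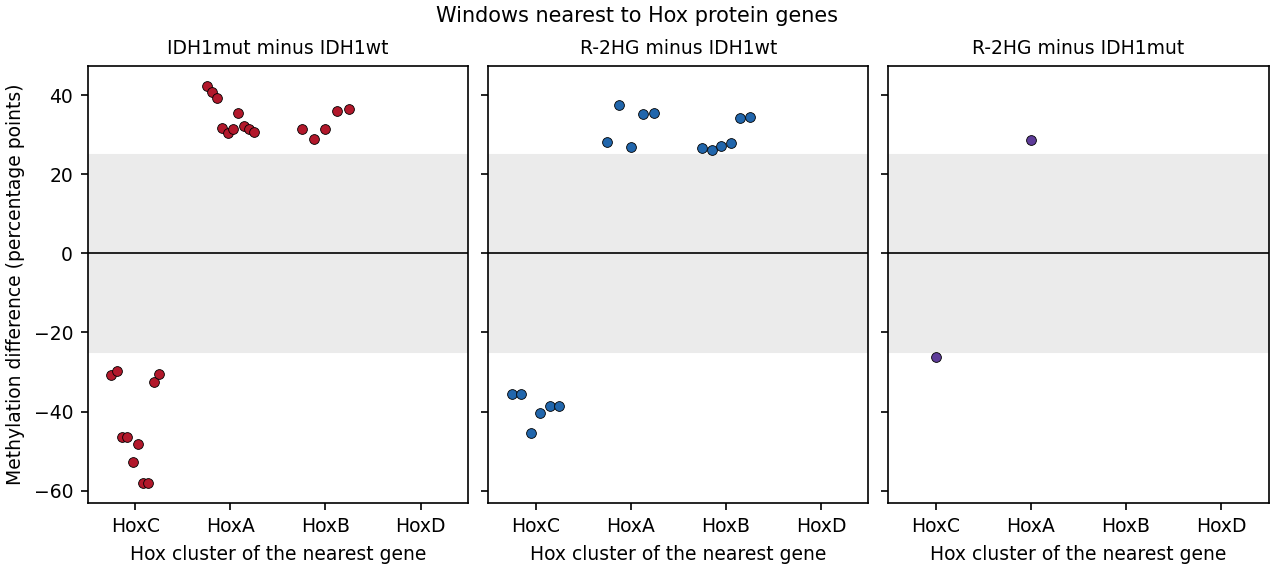
Methylation difference (vertical axis, percentage points) of every listed window nearest to a Hox protein gene, by cluster (horizontal axis) and comparison (panels). Each point is a window, and the grey band marks sizes that are not listed. HoxC points lie below 0 in every panel, HoxA points above 0 in every panel and HoxB points above 0 in the 2 panels where they were listed.

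Genes of proteins that act with or on Hox clusters were also looked up. Of 9 Hox cofactor genes, Meis2 was a gain and Meis1 had windows in both directions in IDH1mut, none was listed for R-2HG against IDH1wt, and Meis1 was lower in R-2HG than in IDH1mut cells. Of 19 Polycomb and trithorax genes, 3 were listed for IDH1mut, all as gains, in a table where 69.3% of the windows were gains. Among them was Cbx8, a Polycomb subunit gene, with 55.6 and 55.8 points in 2 windows 3228 bp or more from its start in the authors' deposited table. Cbx8 and the H3K27 demethylase gene Kdm6b were the members listed for R-2HG against IDH1wt, with 36.5 and 36.6 points at Cbx8 in the authors' deposited table. Of this list, Bmi1 was the member listed between R-2HG and IDH1mut cells, as lower in R-2HG, and differences under 25 points are not listed there. Of 9 genes for DNA methylation enzymes, Dnmt3a was listed, with 1 window higher by 25.8 points in IDH1mut, near the size limit. It also had 1 window lower in R-2HG than in IDH1mut cells, with a difference of -35.8 points. Apart from the Meis1 loss in IDH1mut, the genes listed here had the direction of most listed windows. Gains were 69.3% of windows for IDH1mut and 68.0% for R-2HG against IDH1wt, and 64.5% were lower in R-2HG than in IDH1mut.

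Of 122 other genes with at least 2 windows listed in both comparisons with IDH1wt, 20 had a median below 0 in both, as Hoxc6 did. The genes nearest to Hoxc6 were ranked by the distance between median differences over the 2 comparisons. Paics, a purine synthesis gene, came first at 7.69 points, with medians of -40.1 points in IDH1mut and -36.2 in R-2HG, but its nearest window lay at -11686 bp from its start. Cox7c, which encodes a subunit of cytochrome c oxidase, was 9.67 points from Hoxc6 and had a window over its start. Cdkn1c, the imprinted cell cycle inhibitor gene, followed at 11.2 points, then Ski at 13.1 and Necab1 at 13.7. None of these 5 was listed between R-2HG and IDH1mut, and none had a median as low as that of Hoxc6, which was -47.4 points in IDH1mut and -38.6 in R-2HG. The Hoxc6 medians were over 8 windows in IDH1mut and 6 in R-2HG, some of them overlapping. Each of the 5 genes had 2 or 3 windows.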

How the data were processed

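RRBS libraries were made from MspI fragments and sequenced on a lane each, per the labels' protocols. The submitters' processing notes name Trim Galore, BSMAP, methylKit 0.9.1 and mm9. For settings, coverage filter and statistical test nothing is given in the sources used here. The authors deposited 3 tables of windows of 500 bp at steps of 250 bp, each with a p-value and q-value (largest q 0.00995) and a methylation difference, a signed score in percentage points.

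Here, windows repeated for equally near transcripts were counted once. The table of IDH1wt with R-2HG was turned round, because only then did all 705 windows listed in exactly 2 tables leave a difference under 25 points, with a residual of 0 at the 3 windows in all tables. Other orders left 72 to 385 such windows. Positive values were read as higher in the group named second by the other tables. Joining, signs and bounds were tested on simulated data. Python 3.11.15 and pandas 2.3.3 were used. The members and lists were chosen with earlier results of these data known. Named were the members, the other HoxC genes, the preset lists and the 5 genes nearest to Hoxc6. No test was made. Read depth is unknown.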

Additional observations from a re-analysis of the deposited data

How the results depend on the processing

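Apart from the opposite sign reading, each alternative drew on the same listed HoxC windows, all of them losses, so none could change the direction. Under the opposite sign reading the medians became 46.5 points for IDH1mut and 38.6 for R-2HG, both set against IDH1wt. For R-2HG set against IDH1mut it became 26.2 points. For IDH1mut the 10 windows became 6 at 35 points or more (median -50.5), 5 without shared bases, 4 within the promoter from -2000 to 500 bp (median -39.5), and 8 distinct values (median -39.5), the last an alternative chosen after seeing the data. For R-2HG against IDH1wt the 6 windows became 3 without shared bases and 2 in the promoter (median -35.5). Joining overlapping windows alone gave 5 stretches in place of 2 for IDH1mut and 3 in place of 1 for R-2HG against IDH1wt. The q limit of 0.0001 left every count as it was, which was fixed beforehand because q was 0 at every HoxC window. At 35 points or more no Hoxc10 window remained, so that setting has no value for R-2HG against IDH1mut. No paired analysis was possible because the tables hold no value per library, and for the same reason no library could be left out.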
